A study of Rattus norvegicus with 34 samples.

Results

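The genes described here code for proteins of the Z-disc and for cardiac LIM proteins, and they were chosen by name: Actn2, Ldb3, Tcap, Myoz2, Csrp3, Fhl2, Xirp1, Smpx and Des, 9 genes in all. Of these, 7 had a probe with that symbol, 1 probe each, among the 13337 genes with a probe on the Illumina RatRef-12 BeadChip, and all 7 passed the filter on low values that left 6781 genes for testing. Tcap, which codes for the titin cap protein telethonin, and Xirp1, which codes for an actin-binding repeat protein of the intercalated disc, had no probe named for them and were not analysed here.

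Female Sprague-Dawley rats received a single intraperitoneal injection of 12 mg/kg doxorubicin (DOX), an anthracycline used against cancer that injures the heart, or saline, and tissue was taken 48 h later. The left ventricle and the peripheral blood mononuclear cells (PBMC) of the same 17 rats were profiled, 8 arrays titled saline and 9 titled DOX in each tissue, 34 arrays in all. The rats carried no engineered allele, their age is not given in the sources used here, and the blood was drawn by heart puncture before PBMC were separated on Ficoll. Values are log2 intensities, set for every array against the median of the probes classed as not expressed, so that 0 is the level of background. The replicates are separate rats, but RNA of 7 rats was also run on repeat arrays, and how those repeats enter the deposited values is not stated.

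The Z-disc is the border of the sarcomere, the contractile unit of muscle, where thin filaments of neighbouring sarcomeres are anchored and crosslinked. It also holds signalling proteins that sense load, among them proteins with LIM domains, paired zinc fingers that bind other proteins rather than DNA. Alpha-actinin-2 (Actn2) crosslinks the thin filaments. LIM domain-binding 3 (Ldb3, also called ZASP or Cypher) and myozenin-2 (Myoz2, calsarcin-1) bind alpha-actinin, and myozenin-2 also tethers the phosphatase calcineurin. Muscle LIM protein (Csrp3) and four-and-a-half LIM domains protein 2 (Fhl2) move between sarcomere and nucleus. Small muscle protein X-linked (Smpx, chisel) lies at the costameres, which tie Z-discs to the cell membrane, and desmin (Des) is the muscle intermediate filament that links Z-discs to each other, to the membrane and to the nucleus. Mutations in several of these genes cause human cardiomyopathy.

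The upstream sequences of the genes are shown first, since the genes that fell together in the heart can be compared at their start sites. RefSeq's promoter table (build GRCr8) held 10 windows for 7 of the 9 genes, all but Csrp3 and Tcap, and the 250 bases before each start were searched on both strands for 5 motifs. These were the CArG box, bound by serum response factor; the MEF2 site, bound by myocyte enhancer factor 2; CATTCC, the M-CAT element of TEAD factors; CANNTG, the E-box of basic helix-loop-helix factors; and TATAAA, an element of the core promoter. A CArG box is in 1.5% of the 33469 windows of the table, a MEF2 site in 2.96%, CATTCC in 12.1%, CANNTG in 65.5% and TATAAA in 12.9%. The windows shown are printed 5′ to 3′ on the strand of the gene, each ending at the base before the start, with matches to the CArG box, MEF2 site, CATTCC and TATAAA in capitals. They are those of the measured genes with a match to a CArG box or a MEF2 site.
Fhl2, start 1, chr9:52954541-52954790, minus strand: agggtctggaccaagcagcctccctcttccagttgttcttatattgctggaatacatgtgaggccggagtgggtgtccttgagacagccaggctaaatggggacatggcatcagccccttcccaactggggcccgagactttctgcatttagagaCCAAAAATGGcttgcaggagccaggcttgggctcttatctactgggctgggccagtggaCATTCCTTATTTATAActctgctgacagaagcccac
Fhl2, start 2, chr9:52923327-52923576, minus strand: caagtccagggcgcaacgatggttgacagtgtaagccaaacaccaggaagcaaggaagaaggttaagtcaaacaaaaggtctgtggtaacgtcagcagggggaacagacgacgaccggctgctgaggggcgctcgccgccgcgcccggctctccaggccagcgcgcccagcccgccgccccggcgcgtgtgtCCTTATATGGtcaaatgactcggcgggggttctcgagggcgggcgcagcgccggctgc
Ldb3, chr16:9924680-9924929, minus strand: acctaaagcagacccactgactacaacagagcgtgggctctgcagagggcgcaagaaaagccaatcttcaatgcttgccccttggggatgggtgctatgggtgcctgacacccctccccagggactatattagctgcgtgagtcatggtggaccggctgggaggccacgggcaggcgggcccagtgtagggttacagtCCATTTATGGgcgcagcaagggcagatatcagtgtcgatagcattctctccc
Myoz2, chr2:213852779-213853028, minus strand: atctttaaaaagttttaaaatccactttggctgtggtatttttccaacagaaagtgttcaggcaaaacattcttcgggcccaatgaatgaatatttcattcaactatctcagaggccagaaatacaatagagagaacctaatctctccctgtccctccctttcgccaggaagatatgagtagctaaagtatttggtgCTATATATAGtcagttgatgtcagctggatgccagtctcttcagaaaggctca
Smpx, chrX:41107138-41107387, minus strand: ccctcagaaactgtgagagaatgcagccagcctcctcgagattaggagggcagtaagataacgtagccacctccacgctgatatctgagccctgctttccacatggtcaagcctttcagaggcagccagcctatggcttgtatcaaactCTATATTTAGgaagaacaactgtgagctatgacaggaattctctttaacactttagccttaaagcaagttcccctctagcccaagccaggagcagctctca

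Both start sites of Fhl2 held a CArG box, at positions -95 to -86 and -58 to -49 from the start, and Ldb3 held one at -52 to -43. MEF2 sites lay at -53 to -44 of Myoz2, at -101 to -92 of Smpx and at -30 to -21 of the first start of Fhl2. In that last window CATTCC stood directly upstream of the MEF2 match, at -36 to -31, and the MEF2 match shared its bases with a TATAAA match on the opposite strand at -27 to -22. The windows of Actn2 and Des held matches to CANNTG only, 2 in Actn2 and 1 in Des. These are matches of letters in a window and say nothing on which factor was bound in these rats.

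The first comparison asked how the hearts of DOX-treated rats differed from those of saline-treated rats. All 7 measured genes were lower after DOX, by 5.57-fold for Smpx to 35.2-fold for Fhl2, and in none of them did a DOX heart reach the level of any saline heart. Across all genes tested, 48.0% were called lower and 1.36% were called higher, where a call is an adjusted p under 0.05 in limma together with a change over 2-fold, and 63.3% lay lower without overlap of the groups. The median log2 fold change of the 7 genes was -2.80, against -0.94 for all 6781 genes. These medians had unequal room to fall before reaching background. In saline hearts the median of tested genes was 1.31 to 1.78, whereas the 7 genes stood at 3.96 or more. Since these are bulk samples, fewer cells of a type and less RNA per cell cannot be told apart.

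**Figure D1:**
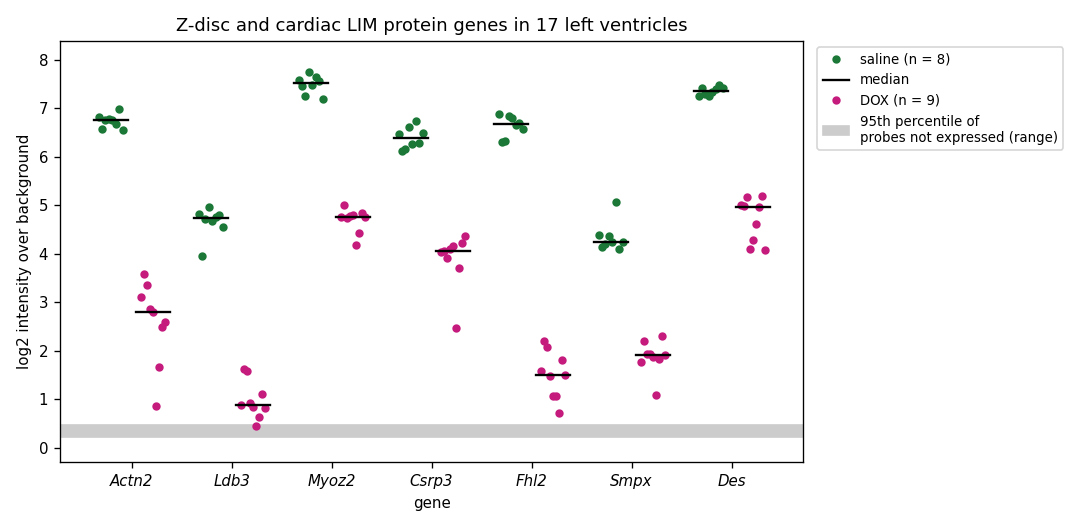
Log2 intensity over background (vertical axis) of the 7 measured genes (horizontal axis) in each left ventricle, saline (n = 8) beside DOX (n = 9), with the median of each group as a line and the range of the 95th percentile of probes not expressed as a grey band. Saline and DOX hearts do not overlap for any gene, and Fhl2 spans the widest gap, from 6.32 in the lowest saline heart to 2.21 in the highest DOX heart.

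Among the structural proteins of the Z-disc, Actn2 had log2 values of 6.56, 6.76 and 6.99 in saline hearts (lowest, median and highest; n = 8) and 0.87, 2.79 and 3.59 in DOX hearts (n = 9). The saline hearts lay within 0.44 log2 units of each other, whereas the DOX hearts spread over 2.72, the widest range of the 7 genes. The log2 fold change was -4.15 ± 0.282 (SE; limma adjusted p = 7.44e-11), a 17.8-fold decrease that ranked 39 from the lowest among 6781 genes.

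Ldb3, whose protein protects the Z-disc during contraction, stood at 3.96, 4.74 and 4.97 in saline hearts and at 0.44, 0.87 and 1.63 in DOX hearts. Its DOX values came close to background, since the 95th percentile of probes not expressed was 0.22 to 0.46 in those arrays, but each stayed above that level in its own array. The log2 fold change was -3.67 ± 0.163 (SE; limma adjusted p = 1.77e-13), which ranked 88.

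Myoz2, the calcineurin-binding member, had values of 7.20, 7.53 and 7.76 in saline hearts and 4.18, 4.76 and 5.02 in DOX hearts. The hearts of each group were close together, within 0.56 and 0.84 log2 units, and the groups were parted by 2.19. Its log2 fold change was -2.80 ± 0.106 (SE; limma adjusted p = 2.31e-14).

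Of the LIM proteins, Fhl2 fell the most. Its log2 values were 6.32, 6.68 and 6.88 in saline hearts and 0.71, 1.50 and 2.21 in DOX hearts, so that the lowest saline heart was 4.11 log2 units above the highest DOX heart. The log2 fold change was -5.14 ± 0.177 (SE; limma adjusted p = 7.48e-15), and only 1 of the 6781 genes had a lower one. Leaving out 1 heart at a time moved it between -5.23 and -5.04.

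Csrp3, which codes for muscle LIM protein, had values of 6.12, 6.38 and 6.74 in saline hearts and 2.48, 4.06 and 4.38 in DOX hearts. A single DOX heart, number 6, made the lower end, and the other 8 DOX hearts lay between 3.71 and 4.38. The log2 fold change was -2.50 ± 0.198 (SE; limma adjusted p = 6.87e-10), and -2.32 without that heart.

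At the costamere and in the filament network outside the sarcomere, the falls were similar in size to that of Csrp3. Smpx had values of 4.11, 4.25 and 5.07 in saline hearts and 1.09, 1.91 and 2.30 in DOX hearts, with a log2 fold change of -2.48 ± 0.149 (SE; limma adjusted p = 1.3e-11). Desmin was the steadiest of the 7 genes among saline hearts, at 7.26, 7.37 and 7.48, and stood at 4.09, 4.96 and 5.19 in DOX hearts. Its log2 fold change was -2.65 ± 0.153 (SE; limma adjusted p = 6.82e-12). Myoz2, Csrp3, Smpx and Des ranked between 465 and 719 from the lowest, below the median gene but far behind Fhl2, Actn2 and Ldb3.

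**Figure D2:**
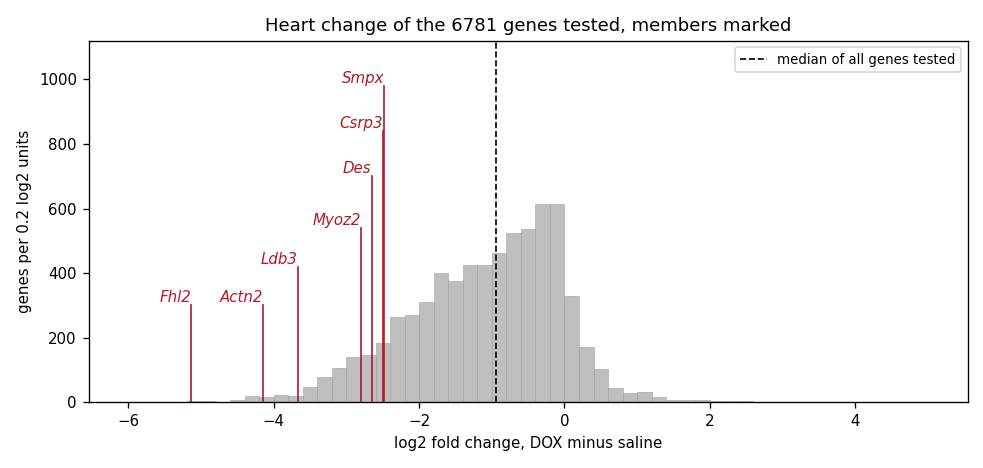
Number of genes (vertical axis) per 0.2 log2 units of change in heart, DOX minus saline (horizontal axis), for the 6781 genes tested, with the 7 genes marked by red lines of arbitrary height and the median of all genes, -0.94, as a dashed line. Fhl2 at -5.14, Actn2 at -4.15 and Ldb3 at -3.67 lie in the lower tail, and the other 4 genes lie between -2.80 and -2.48.

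The unequal size of the falls can be restated as ratios within arrays, whose mean changes equal the differences between the log2 fold changes given above. When the log2 ratio of each gene to Des was taken in every heart, the change of that ratio with DOX does not depend on how arrays were scaled against each other by subtraction. The ratio of Fhl2 to Des fell by 2.49 ± 0.199 (SE) and that of Actn2 to Des fell by 1.50 ± 0.310, in both cases with no DOX heart reaching a saline heart. The ratio of Ldb3 to Des fell by 1.02 ± 0.194, and the groups overlapped. For Myoz2 the change of the ratio was -0.14 ± 0.187, for Csrp3 0.15 ± 0.266 and for Smpx 0.17 ± 0.202, each smaller than its standard error. Desmin was taken as the reference after the values were seen, and these ratios were not tested across all genes.

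The hearts also differed in order. DOX heart 6 was the lowest of the 9 DOX hearts for Actn2, Ldb3, Myoz2, Csrp3 and Smpx and the second lowest for Fhl2, while for Des it was only the fourth lowest. DOX heart 7 was among the 3 lowest for 6 of the 7 genes, DOX heart 2 was among the 3 highest for 5, and DOX heart 8 was among the 3 highest for 6. The median log2 value of all tested genes was 0.22 in DOX heart 6, 0.30 in DOX heart 7 and 0.70 in DOX heart 2, the lowest, the next lowest and the highest of the 9, but 0.45 in DOX heart 8, in the middle of the range. Its part in the order of the 7 genes was not tested.

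Such array-wide dimming separated the groups as a whole. The median of tested genes was 0.22 to 0.70 in DOX hearts and 1.31 to 1.78 in saline hearts, a difference of -1.06 (two-sided exact permutation test over all splits of the 17 hearts, p = 4.11e-05, the same after adjustment over 2 measures). DOX hearts held 2826 to 4802 distinct values per array and saline hearts 22196 to 22417, so the values of the 2 groups were also written at different resolution. Whatever produced that difference in the deposited values cannot be told apart from DOX in these hearts.

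The choice of scaling therefore set the size of the changes. When each array was centred on the median of the expressed genes, 18.1% of genes were called lower and all 7 genes were still called, with log2 fold changes of -4.08 for Fhl2, -3.09 for Actn2, -2.61 for Ldb3, -1.74 for Myoz2, -1.59 for Des, -1.44 for Csrp3 and -1.42 for Smpx. Under quantile normalization, 15.5% of genes were called lower and the median of all genes moved to -0.23. Fhl2 at -3.28 (limma adjusted p = 5.86e-14), Actn2 at -2.17 (limma adjusted p = 6.55e-08) and Ldb3 at -2.17 (limma adjusted p = 1.74e-12) were still called. The other 4 genes were not. Smpx changed by -0.81 (limma adjusted p = 1.66e-06), Myoz2 by -0.44 (0.00228) and Des by -0.32 (0.0478), all under 2-fold, and Csrp3 by -0.34 (0.108).

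**Figure D3:**
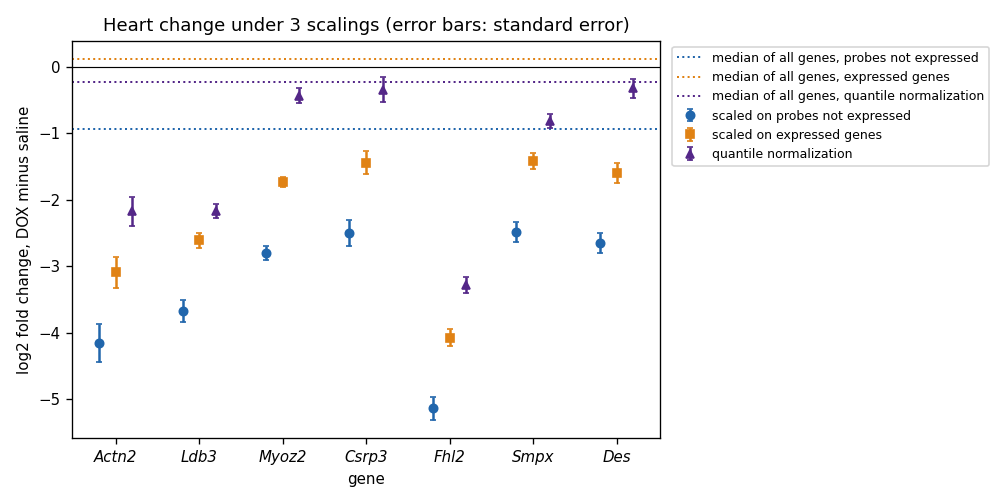
Log2 fold change in heart, DOX minus saline (vertical axis), with its standard error, of the 7 genes (horizontal axis) under 3 scalings, and the median of all genes under each as a dotted line. Fhl2, Actn2 and Ldb3 stay below -2 under every scaling shown, while Myoz2, Csrp3, Smpx and Des rise to between -0.81 and -0.32 under quantile normalization.

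The other genes of these structures were examined from 3 lists. Of 41 other Z-disc genes, 24 were tested, and 21 fell, none rose and 3 were not called, with a median log2 fold change of -1.78. Across all genes tested, 48.0% were called lower, with a median of -0.94. Among those with the largest decreases were Bag3 at -4.05 ± 0.182 (SE), a co-chaperone that maintains the Z-disc, Cryab at -3.57 ± 0.0849, the small heat shock protein alpha-B crystallin that protects desmin, and Sorbs2 at -3.22 ± 0.148, an adaptor protein of the Z-disc. Bag3 stood at 5.73 to 6.03 in saline hearts and 0.63 to 2.42 in DOX hearts, so that its groups did not overlap. Under quantile normalization 8 of the 24 were called lower, against 15.5% of all genes. Of the non-muscle relatives of Actn2, Actn4 fell by 1.42 ± 0.0756 on the log2 scale. Actn1, with a median of 0.14 in saline hearts, was not above background in any of them. Its log2 change of -0.21 ± 0.045 therefore lay at the level of background and cannot be read as a fall in expression.

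The 32 other LIM domain genes were more mixed. Of 16 tested, 8 fell, 1 rose and 7 were not called, so the share that fell was near the 48.0% of all genes. Their median of -1.08 was close to the -0.94 of all genes. Under quantile normalization 6 were called lower and 3 higher, where 15.5% of all genes were called lower. Crip2, a cysteine-rich LIM protein, fell by 4.76 ± 0.211 on the log2 scale (limma adjusted p = 1.7e-13), from a median of 7.10 to 2.25. Fblim1, the filamin-binding adaptor migfilin, fell by 3.50 ± 0.123, and Pdlim3, the actinin-associated LIM protein, fell by 3.05 ± 0.187. Pdlim3, like Pdlim1, Pdlim5 and Pdlim7, is on the Z-disc list as well and was counted in both. The closest relatives of Fhl2 fell less than it did, with log2 fold changes of -2.57 ± 0.195 for Fhl1 and -1.39 ± 0.171 for Fhl3, though the differences between these genes were not tested. Both also had less room to fall, with saline medians of 3.33 for Fhl1 and 2.82 for Fhl3 against 6.68 for Fhl2.

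The gene that rose was Csrp1, a relative of Csrp3 found mainly in smooth muscle and other non-cardiac cells. It went from 0.95, 0.97 and 1.53 in saline hearts to 1.46, 2.17 and 2.71 in DOX hearts, with slight overlap, and its log2 fold change was 1.15 ± 0.149 (SE; limma adjusted p = 8.08e-07). Csrp2, the third of that family, changed by -0.77 ± 0.238, under 2-fold. Csrp1, like Csrp2, Fhl1, Fhl3, Actn1 and Actn4, was named after its values were seen. Under quantile normalization Csrp1 was higher by 2.27, and Lims1 and Limk2, at 1.90 and 1.12, were also called higher.

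Of 28 intermediate filament and costamere genes, 14 were tested, and 10 fell, none rose and 4 were not called, with a median of -2.28, and under quantile normalization 5 were called lower. The shares of all genes called lower were 48.0% and, under quantile normalization, 15.5%. Jup, the junction protein plakoglobin, fell by 3.59 ± 0.134, Vim, the filament protein of non-muscle cells, by 3.44 ± 0.218, and Dag1, the dystroglycan of the membrane complex, by 3.43 ± 0.163. Vim is a gene of fibroblasts, endothelium and leukocytes rather than of cardiomyocytes, and its difference from Des was not tested.

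**Figure D4:**
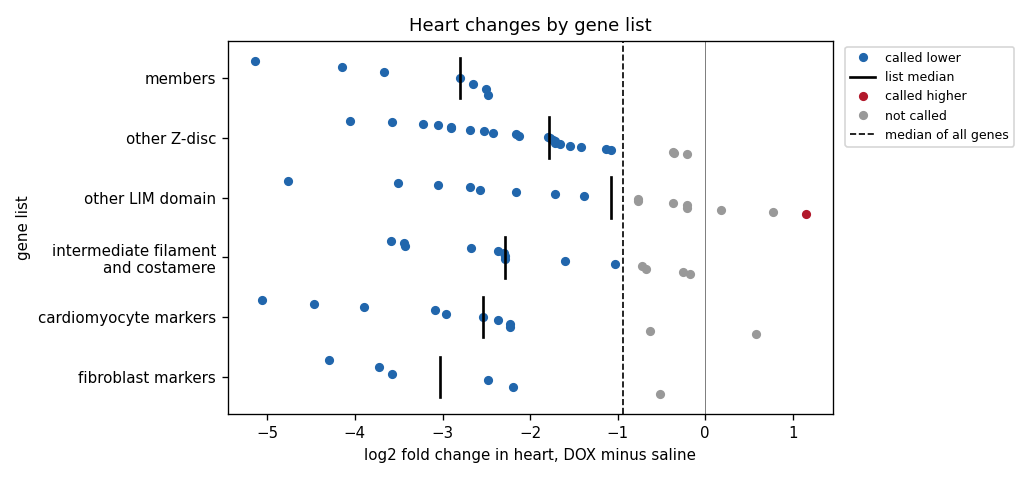
Log2 fold change in heart, DOX minus saline (horizontal axis), of each tested gene of 6 lists (vertical axis), coloured by its call, with the median of each list as a black bar and the median of all genes as a dashed line. The 7 members have a median of -2.80, the fibroblast markers -3.03 and the other LIM domain genes -1.08, and Csrp1 at 1.15 is the gene called higher.

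Most markers of cardiomyocytes, fibroblasts, endothelium and smooth muscle fell with these genes, whereas markers of blood cells were mixed. In this comparison 48.0% of all genes were called lower and 1.36% higher. Of the 11 cardiomyocyte markers tested, 9 fell, with a median of -2.54, and their mean log2 value was 6.63 to 7.01 in saline hearts and 3.48 to 4.81 in DOX hearts. Mybpc3, which codes for the cardiac myosin-binding protein of the thick filament, fell by 5.07 ± 0.176 on the log2 scale, whereas Actc1 and Ryr2 were not called. Fibroblast markers fell too, 5 of 6 with a median of -3.03, and their mean log2 value went from 3.13 to 4.84 in saline hearts down to 0.71 to 2.06 in DOX hearts. Of 3 endothelial markers tested, 2 fell (median -2.52), as did both smooth muscle markers tested (median -2.50). Of 4 leukocyte markers, 2 fell, and 3 were above background by group mean in saline hearts but 0 in DOX hearts. None of the 7 T cell markers with a probe was above background by group mean in either group of hearts, so a change there cannot be read as a fall in expression. Neutrophil markers, of which 2 of 4 rose in heart, had a mean of 0.16 to 0.46 in saline hearts and 0.42 to 1.03 in DOX hearts. Of 6 red cell markers tested, 1 fell (median -0.015), and of 4 platelet markers 2 fell (median -0.97). None of the 3 monocyte markers (median -0.26) or the 3 B cell markers (median -0.16) tested was called. By group mean in saline hearts, 2 red cell, 2 platelet, 2 monocyte and 1 B cell markers were above background. Under quantile normalization 3 of the 11 cardiomyocyte markers were called lower and 1 higher (median -0.69), and 4 of the 6 fibroblast markers lower (median -1.53). The share of all genes called lower was then 15.5%. The part of these cell types in the fall of the 7 genes was not tested.

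Across all 34 arrays, the genes whose pattern was most like the mean of the 7 were Dcn (Pearson r = 0.996), Igfbp7 (0.995), Htra1 (0.995), Ckm (0.994), Trim54 (0.994) and Pkp2 (0.993). The arrays share tissue and array brightness, and no correlation was taken within a tissue. Dcn is a gene of fibroblasts, and Ckm and Trim54 are genes of muscle. In heart their log2 fold changes ranged from -4.47 for Ckm to -2.27 for Htra1.

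The second comparison asked whether the same genes changed in PBMC. The array titles and the direction of the study's published PBMC estimates do not match in this tissue: the estimates run as though the arrays titled saline 1 to 8 and DOX 1 were the treated ones and DOX 2 to 9 the controls. The count of distinct values falls the same way, 2804 to 5746 in the first 9 arrays, as in DOX hearts, and 22278 to 22419 in the other 8. The 2 ways to group the PBMC arrays assign 16 of 17 arrays oppositely, so each result is given first as saline 1 to 8 with DOX 1 minus DOX 2 to 9, called the DOX side minus the control side, and then by the titles, whose signs are opposite to those of the study's estimates. The sides follow estimates made from these same arrays, so p-values between them describe the split and are not independent support for it. Among the 9 arrays of the DOX side, saline 6 and DOX 1 stood apart, with a correlation of 0.929 with each other and 0.590 to 0.837 with the other 7.

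Most of these genes were not detected in PBMC. Actn2, Ldb3, Myoz2 and Csrp3 were not well above background in any of the 17 arrays, where the limit was the 95th percentile of probes not expressed, 0.20 to 0.49. Their highest log2 values were 0.21 for Actn2, 0.20 for Ldb3, 0.06 for Myoz2 and 0.04 for Csrp3. Control hearts therefore exceeded the control side of PBMC at least 80.7-fold for Actn2, 19.0-fold for Ldb3, 136-fold for Myoz2 and 63.4-fold for Csrp3, as bounds set by the lowest signal above background in PBMC. Against the DOX side of PBMC, that is by the titles mostly saline arrays, the bounds were 90.1-fold, 21.2-fold, 152-fold and 70.8-fold. Des, above background on 1 of the 8 arrays of the control side, was at least 122-fold higher in saline hearts by the same bound (limma adjusted p = 4.74e-31). Fhl2 and Smpx, above background on all 8, were higher in saline hearts by 17.3-fold (limma adjusted p = 3.13e-19) and 9.48-fold (limma adjusted p = 3.39e-19).

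Des was above background in 5 of the 17 PBMC arrays, 4 on the DOX side and 1 on the control side. Its values were 0.14, 0.22 and 0.62 on the DOX side and 0.06, 0.29 and 0.51 on the control side, which overlap fully. The summed log2 value of the 11 cardiomyocyte markers was 0.15 to 4.80 in PBMC and 72.9 to 77.1 in saline hearts. Of these 11, 2 were above background by group mean on the control side and 1 on the DOX side. They were Tnnc1, cardiac troponin C, above background in 15 of the 17 arrays with a median of 1.24, and Atp2a2, the calcium pump of the sarcoplasmic reticulum, above background in 11 with a highest value of 3.47. Both were named after their values were seen. Atp2a2 was lower on the DOX side by 2.46 ± 0.206 (SE) on the log2 scale (limma adjusted p = 1.72e-08), the 1 call among the 11, where 54.3% of all genes were called lower. By the titles it was higher by 2.15 ± 0.360 (limma adjusted p = 0.000128). Tnnc1 went the other way, under 2-fold in both groupings. Its log2 change was 0.68 ± 0.297 between the sides (limma adjusted p = 0.0432) and -0.90 ± 0.264 by the titles (limma adjusted p = 0.00638). Of the others, Actc1 was above background in 1 array and the other 8 in 0, among them the heart muscle genes Myh6, Tnnt2 and Tnni3, whose highest PBMC values were 0.19, 0.20 and 0.12.

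Smpx was above background in all 17 PBMC arrays, at low values. On the DOX side it was 0.53, 0.77 and 1.33 and on the control side 0.79, 1.03 and 1.55, so that the groups overlapped. The log2 difference was -0.26 ± 0.144 (SE; limma adjusted p = 0.103). By the titles it was 0.35 ± 0.135 (limma adjusted p = 0.0289), which is under 2-fold. The sign depended on the scaling. Between the sides it became 0.96 (limma adjusted p = 0.000465) under quantile normalization and 1.08 (limma adjusted p = 5.23e-06) with arrays centred on expressed genes. The corresponding values by the titles were -0.63 (limma adjusted p = 0.0583) and -0.78 (limma adjusted p = 0.00739).

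Fhl2 was above background in 15 of the 17 PBMC arrays, all 8 of the control side and 7 of the 9 of the DOX side. It stood at 2.04, 2.59 and 2.88 in the 8 arrays of the control side and at -0.07, 0.49 and 1.49 in the 9 arrays of the DOX side. The sides did not overlap, and 2 arrays of the DOX side, saline 6 at 0.08 and DOX 1 at -0.07, were at background. The log2 fold change was -1.99 ± 0.194 (SE; limma adjusted p = 8.82e-08), a 3.97-fold decrease, and -1.84 without the 2 arrays that stood apart. In that comparison 54.3% of all genes were called lower and 38.4% lay lower without overlap, with a median of -1.12, so a call for 1 of the 7 genes, of which 4 were not above background, is no more than the share of all genes called.

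By the titles, Fhl2 was higher in PBMC titled DOX, by 1.63 ± 0.343 on the log2 scale (limma adjusted p = 0.000652), where 44.4% of all genes were called higher. The groups then overlapped, because DOX 1 at -0.07 was the lowest of all 17 arrays while the other 8 titled DOX were the highest. The call was lost under quantile normalization in both groupings, where the change was -0.74 (limma adjusted p = 0.00783) between the sides and 0.42 (limma adjusted p = 0.207) by the titles. It was also lost with arrays centred on expressed genes, at -0.65 and 0.49, both under 2-fold. The same held when limma p-values were ranked against those of probes not expressed (adjusted p after that ranking = 0.0868 and 0.156).

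**Figure D5:**
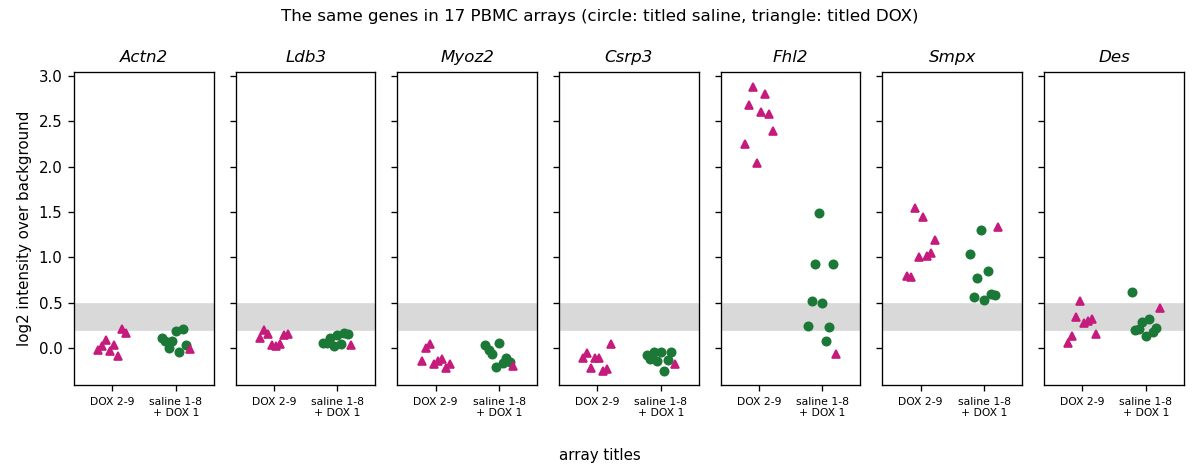
Log2 intensity over background (vertical axis) of the 7 genes in the 17 PBMC arrays, with DOX 2 to 9 on the left of each panel and saline 1 to 8 with DOX 1 on the right (horizontal axis), circles for arrays titled saline and triangles for arrays titled DOX, and the range of the 95th percentile of probes not expressed as a grey band. Fhl2 parts the 2 sets of arrays, from 2.04 upward and from 1.49 downward, Smpx lies above the band in all arrays, and Actn2, Ldb3, Myoz2 and Csrp3 lie at background.

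T cell and B cell markers moved with Fhl2 in PBMC, whereas markers of other blood cells were mixed. All 6 T cell markers tested and all 3 B cell markers tested were called lower on the DOX side, with medians of -2.67 and -2.48, and 3 of 4 neutrophil markers were called higher. Of all 6781 genes, 54.3% were called lower and 32 genes higher. By the titles 4 of the 6 T cell markers (median 2.24) and all 3 B cell markers (median 2.07) were called higher, and 3 of 4 neutrophil markers were called lower. In that grouping 44.4% of all genes were called higher and 52 genes lower. The mean log2 value of the T cell markers was 1.80 to 4.41 on the DOX side and 4.62 to 5.16 on the control side. Of the 4 platelet markers tested, 0 were called between the sides and 1 was called lower by the titles. All 4 leukocyte markers tested were called lower between the sides (median -2.44), and 3 were called higher by the titles. Of 3 monocyte markers tested, 1 was called lower between the sides and 0 were called by the titles. Of 6 red cell markers tested, 0 were called between the sides (median 0.48) and 2 were called lower by the titles. The part of these cells in the level of Fhl2 was not tested. The median of all tested genes was 0.29 to 1.45 on the DOX side and 1.70 to 2.16 on the control side. The difference was -1.34 (two-sided exact permutation test, p = 8.23e-05), a p-value that is no independent support for the sides. By the titles, DOX minus saline, the difference was 1.13 (two-sided exact permutation test, p = 0.000946).

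The third comparison set the change in PBMC against the change in heart. The difference was positive for all 7 genes, that is, each fell more in heart, and 23.1% of all genes were called higher in this test (limma interaction, adjusted p under 0.05 with no limit on size). For Fhl2, above background in both tissues, it was 3.15 ± 0.269 (SE; limma adjusted p = 7.19e-12), and for Smpx 2.22 ± 0.213 (limma adjusted p = 1.06e-10). With PBMC grouped by the titles the difference for Fhl2 became 6.76 ± 0.393 and for Smpx 2.83 ± 0.208, but 87.8% of all genes were then called higher, with a median of 1.96, and Smpx lay above 69.6% of genes. Under quantile normalization between the sides, 2240 of the 6781 genes tested were called higher. Of the 7 genes, 6 were among them, and Csrp3 was not, at 0.37 (limma adjusted p = 0.179). For Actn2, Ldb3, Myoz2 and Csrp3 the difference between tissues restates the fall in heart, since their PBMC values were at background in both groups. Des, mostly at background in PBMC, changed there by 0.03 between the sides, so its difference of 2.68 nearly restates its change of -2.65 in heart.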

How the data were processed

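RNA of 17 left ventricles and 17 PBMC samples (RIN over 7) was amplified with random and 3′ priming and hybridized to BeadChips. Per the methods, the authors exported intensities without background subtraction and took log2; for the 22523 probes the deposited log2 values are centred on the median of each array. Bead counts and detection p-values were not used here, so the number of arrays limits the precision. The 34 columns of raw intensities carry names that match no sample label and were not used.

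Probes were classed as expressed when their mean over the 34 arrays was above 0.15 (9416 of 22523), and each array's median of the other 13107 probes was subtracted. Of the probes, 13793 had 1 gene symbol in the platform annotation, 8730 none and 0 several. Per gene the probe with the highest mean was kept. Linear models were fitted over all 6781 genes in limma 3.58.1 (R 4.3.3) with Benjamini-Hochberg adjustment, heart and PBMC each with their own groups and both tissues together for the interaction. The study used its own moderated t statistic, with p-values set against probes not expressed, which was tried as an alternative. Intensities hold background, so fold changes understate those of dim genes. The fit was tested on simulated data. Other alternatives were quantile normalization, the deposited medians, centring on expressed genes, no filter and a mean above 0.5, array weights, the mean of all probes, a replicate block and each array left out.

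The members, gene lists and tests were chosen with earlier results of these data known. All members were named; of each of 3 other lists, the 3 genes with the largest decreases among called genes without overlap in heart and the 2 with the largest increases (none qualified), and the 6 genes most like the members over 34 arrays. Other genes were named after their values were seen. A member was taken as above background in an array when it passed the 95th percentile of probes not expressed. Methods state that heart and PBMC of a rat share a number, but same-numbered arrays did not deviate together (r from -0.179 to 0.145) and the PBMC titles are in doubt, so numbers were not used to pair arrays. Python 3.11.15 was used for summaries.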

Additional observations from a re-analysis of the deposited data

Results flagged for a closer look

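In 42 sets of arrays (7 genes in 6 groups), 6 arrays lay far from the rest of their group by Dixon's criterion, where chance flags about 1 set in 20. The sets are not independent, since PBMC arrays were examined both by title and by side and the genes share arrays. The count can therefore not be weighed against that rate. In heart these were Ldb3 in saline heart 2 (3.96, the lowest), Smpx in saline heart 6 (5.07, the highest), and Csrp3 (2.48) and Smpx (1.09) in DOX heart 6, the lowest of their group. In PBMC they were Des in the array titled saline 1 (0.62, the highest of those titled saline) and Fhl2 in the array titled DOX 1 (-0.0658, the lowest of those titled DOX).

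The change in PBMC, DOX side minus control side, differed from that in heart by limma's interaction for all 7 genes. Of all 6781 genes, 4104 had an adjusted p under 0.05 in this test, and 1568 of them (23.1% of all genes) were higher. For Actn2, Ldb3, Myoz2 and Csrp3, not above background in PBMC, the difference restates the fall in heart, and for Des it nearly does. The difference was 4.18 log2 units for Actn2, 3.65 for Ldb3, 2.83 for Myoz2, 2.52 for Csrp3, 3.15 for Fhl2, 2.22 for Smpx and 2.68 for Des, with adjusted p between 3.76e-19 for Myoz2 and 1.06e-10 for Smpx. Under quantile normalization the difference for Csrp3 was 0.37 with an adjusted p of 0.179, so that its call was lost, and the differences for Myoz2 and Des shrank to 0.42 (0.0119) and 0.78 (0.00254).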

How the results depend on the processing

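In heart, all 7 members were called lower under every alternative run except quantile normalization, which called 3. Counts of all genes called higher and lower in heart were 92 and 3257, and became 448 and 1049 under quantile normalization, 942 and 1228 with arrays centred on expressed genes, and 35 and 2809 with p-values set against probes not expressed. The share of calls that were higher was 2.75%, 29.9% and 43.4% under the first 3 of these scalings in that order.

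Between the PBMC sides, 32 genes were called higher and 3680 lower. Quantile normalization gave 328 and 680 and 0 members, centring on expressed genes 1569 and 920 with 6 members higher and 0 lower, and array weights 54 higher. With p-values set against probes not expressed, 0 genes and 0 members were called either way (lowest adjusted p 0.0801; 3234 genes had an unadjusted p under 0.05). By the titles, 3009 were higher and 52 lower, against 464 and 333 with quantile normalization (0 members), 675 and 1090 with centring on expressed genes (0 members higher, 5 lower) and 0 and 0 with p-values set against probes not expressed (0 members higher; lowest adjusted p 0.154; 2158 genes with an unadjusted p under 0.05). Among the 6 members called higher and the 5 called lower with centring were Actn2, Ldb3, Myoz2 and Csrp3, not above background in PBMC, and Des, mostly at background. Centring moved genes at background by about the difference of the array medians (-1.34 between the sides, 1.13 by the titles), in the opposite direction. Those calls cannot be read as changes in expression. Fhl2 between the sides was -0.65 with centring on expressed genes, under 2-fold, and its adjusted p was 0.0868 against probes not expressed. Over the alternatives other than leaving out single arrays, its adjusted p ranged from 1.27e-11 with array weights to that value.

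Signs turned in PBMC for members near 0 and for Smpx, which was above background in all PBMC arrays. Between the sides, quantile normalization gave 0.10 for Ldb3, -0.0128 for Myoz2, -0.0465 for Csrp3 and 0.96 for Smpx; deposited medians gave 0.0719 for Ldb3; centring on expressed genes gave 1.31 for Ldb3 and 1.08 for Smpx; array weights gave -0.0305 for Des. By the titles, quantile normalization gave -0.12 for Ldb3, 0.0178 for Csrp3, -0.63 for Smpx and -0.32 for Des; deposited medians gave -0.0745 for Ldb3 and -0.0707 for Des; centring gave -1.12 for Ldb3, -0.78 for Smpx and -1.12 for Des; array weights gave -0.0091 for Ldb3; and leaving out both arrays that stood apart gave -0.0022 for Des.

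For the difference between tissues, 1568 genes were higher and 2536 lower, against 1541 lower with quantile normalization, 2415 higher with centring on expressed genes and 2494 higher with no filter. For the level in heart against PBMC, 2016 genes were lower, against 979 with quantile normalization and 1342 with centring.

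Leaving out 1 array at a time changed no call of a member in heart. Between the PBMC sides it gave -0.0015 to 0.0396 for Csrp3, -0.0129 to 0.0643 for Des and 21 to 51 genes called higher, with saline 4 and DOX 1 left out at those ends. By the titles it gave -0.0052 to 0.0184 for Ldb3 and -0.0176 to 0.0612 for Des. Without both arrays that stood apart, 66 genes were called higher between the sides.

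Saline and DOX arrays share replicate numbers. The replicate block changed no call of a member, with 92 genes higher and 3261 lower in heart and -0.0016 for Des between the PBMC sides. Same-numbered saline and DOX hearts had correlations of deviations from -0.144 to 0.146, and 1 of 8 saline hearts correlated best with its own number; in PBMC these were -0.417 to 0.781 and 3 of 8.

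The limits are those of signal over background: Actn2, Ldb3, Myoz2 and Csrp3 have only an upper bound in PBMC, and so does Des in most PBMC arrays.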
